A study of Mus musculus with 4 samples.

Results

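The cytochrome P450 genes described here are the 100 protein-coding genes of the GENCODE vM21 annotation on chromosomes 1 to 19 whose name is Cyp followed by a digit, out of 20807 protein-coding genes on these chromosomes. They fall into 17 families and 40 subfamilies, and 30 of the subfamilies have 1 member. Chromatin accessibility (ATACseq) and the genomic positions of the histone variant H2A.Z (ChIPseq) were measured in liver tissue of male C57Bl/6 mice aged 8 to 12 weeks. The WT liver carried floxed Uhrf1 alleles without Cre (Uhrf1-Fl/fl). The Uhrf1hepKO liver carried the floxed alleles and the Alb:Cre transgene, which is driven by the albumin promoter and acts mainly in hepatocytes. The loss of Uhrf1 in each cell type was not measured here. Each genotype gave 1 liver, which the series' design text says served both assays, and thus 1 library per assay, 4 libraries in all. A difference between genotypes therefore has no replicate check and carries no p-value, and the Wilson 95% intervals given beside shares cover counting error only. The data are lists of peaks, which are the regions where reads pile up above the local background. The fold of a peak is that ratio, averaged over the region in ATACseq and taken at the summit in H2A.Z. Folds were not scaled between libraries, so each is given with its percentile in its own list.

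Cytochrome P450 enzymes are haem proteins that insert oxygen into drugs, fatty acids, sterols, bile acid precursors, steroid hormones, retinoic acid and vitamin D. In the liver, enzymes of the Cyp1, Cyp2 and Cyp3 families clear foreign compounds, Cyp4 enzymes hydroxylate fatty acids and eicosanoids, and Cyp7a1, Cyp7b1, Cyp8b1 and Cyp27a1 turn cholesterol into bile acids. Many mouse Cyp genes stand in tandem arrays of close copies. ATACseq marks DNA that the Tn5 transposase can reach, and H2A.Z is a histone variant known from the nucleosomes that flank transcription start sites (TSSs) and from regulatory elements.

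The lists held 10758 ATACseq peaks in WT and 10972 in Uhrf1hepKO, and 51702 and 47391 H2A.Z peaks. The background recovered from the steps of the folds was 1.56 and 2.0 reads per base in ATACseq and 3.10 and 3.30 in H2A.Z, so the Uhrf1hepKO ATACseq library was the deeper one of its assay. Uhrf1, the deleted gene, had 1 ATACseq and 1 H2A.Z peak within 5 kb of its TSS in each genotype, and a peak list cannot show whether its exons were removed. Few hepatocyte marker genes had a peak near the TSS. Of 7 (Alb, Apoa1, Apoh, Ttr, Tat, Hnf4a and Cps1), 0 had an ATACseq peak in WT and 1 in Uhrf1hepKO, and 2 and 1 had an H2A.Z peak. None of the 5 Kupffer cell, 5 endothelial and 4 stellate cell markers had a peak within 5 kb of the TSS in any list, and of 4 cholangiocyte markers only Sox9 had one. The libraries came from whole tissue, so a site open in few cells and a site weakly open in many cannot be told apart.

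A smaller share of Cyp genes than of all protein-coding genes had a called ATACseq peak near the TSS. In WT, 9 of 100 had an ATACseq peak in the window of 5 kb on both sides of the TSS (9%, interval 4.81 to 16.2%), where 31.4% of all protein-coding genes did. In Uhrf1hepKO, 17 had one (17%, 10.9 to 25.5%), beside 29% of all genes. H2A.Z was found more often. It lay within 5 kb of the TSS of 41 members in WT (41%, 31.9 to 50.8%) and of 36 in Uhrf1hepKO (36%, 27.3 to 45.8%), beside 54.4% and 52.6% of all genes. In the gene body, 10 and 11 members had an ATACseq peak, against 31.3% and 29.6% of all genes, and 29 and 26 had an H2A.Z peak, against 47.8% and 45.0%.

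**Figure D1:**
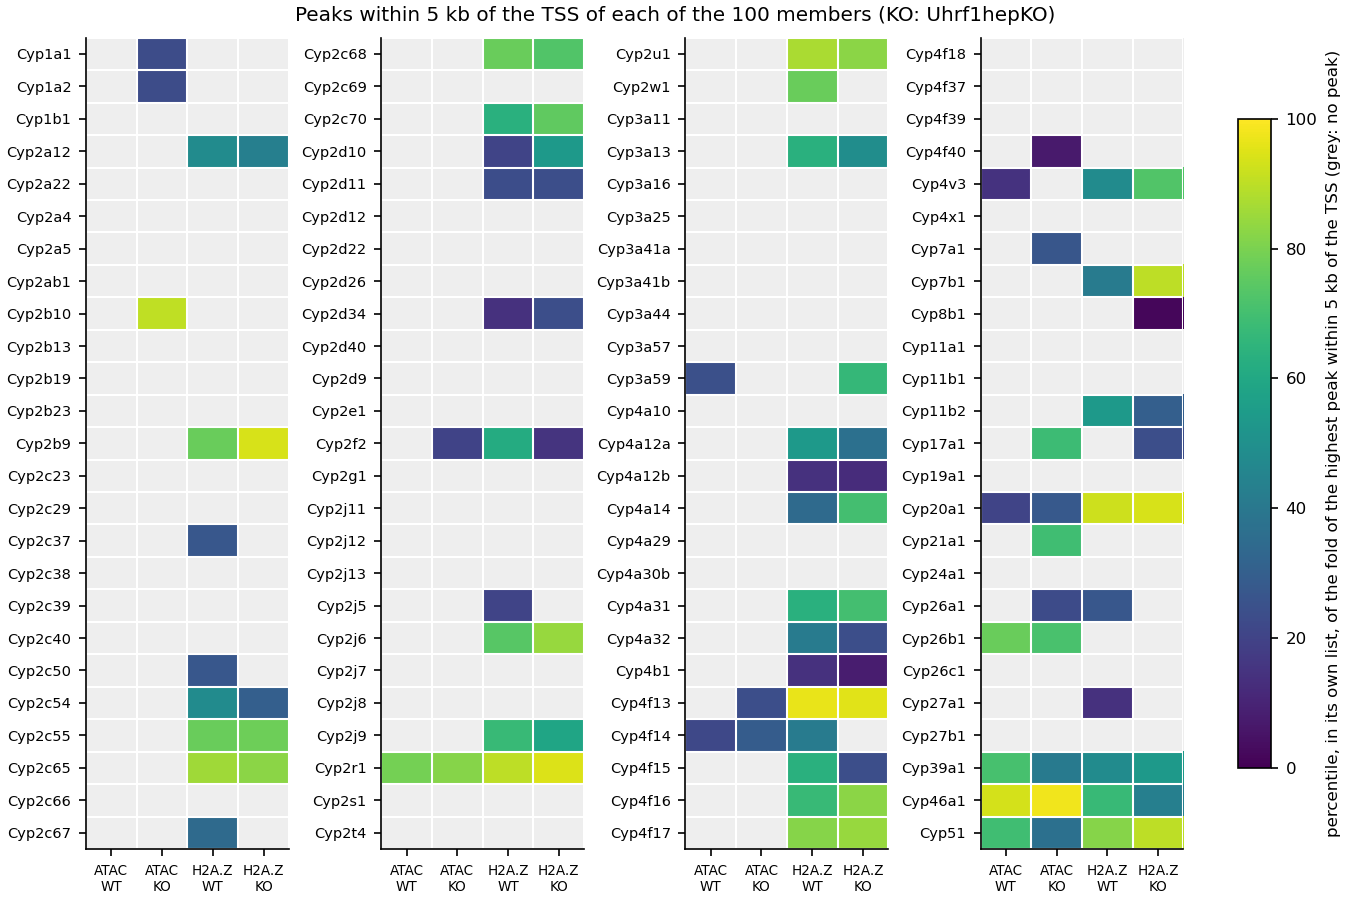
Each row is 1 of the 100 Cyp genes and each column 1 peak list (KO, Uhrf1hepKO). The colour gives the percentile, within its own list, of the fold of the highest peak within 5 kb of the TSS, and grey marks genes without a peak. Colour fills 9 and 17 cells in the ATACseq columns and 41 and 36 in the H2A.Z columns.

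Cyp promoters were poor in CpGs. The median member had 8 CpGs within 500 bp of the TSS, where the median protein-coding gene had 43. Members with an ATACseq peak in WT had a median of 53 and those without had 7. Members with and members without a WT H2A.Z peak both had a median of 8. Among the 60 members with 0 to 9 CpGs, 2 had an ATACseq peak in WT (3.33%), beside 5.36% of the 4157 protein-coding genes of that class. H2A.Z was at 23 of these 60 in WT (38.3%, 27.1 to 51.0%), beside 14.0% of the class, and at 20 in Uhrf1hepKO (33.3%, 22.7 to 45.9%), beside 13.4%. Olfactory and vomeronasal receptor genes made up 1397 genes of the class. Without them, a comparison chosen after the data were seen, the share of the class with H2A.Z was 19.4% in WT and 18.0% in Uhrf1hepKO. Of the 11 members with 40 or more CpGs, 6 had an ATACseq peak and 10 an H2A.Z peak in WT, beside 49.2% and 76.7% of all genes of that class. At CpG-poor members, ATACseq peaks called in Uhrf1hepKO only were more frequent than over all such genes, but most of them were weak. Of the 81 members with under 20 CpGs, 9 had a peak in Uhrf1hepKO only (11.1%, 5.96 to 19.8%), beside 2.93% of all such genes. Of these 81, 2 had one in both genotypes, beside 4.83%, and 1 in WT only, beside 2.83%. The 9 members include Cyp1a1 and Cyp1a2, whose windows share 1 peak, while the interval treats genes as separate. Among the 9, only Cyp2b10, Cyp21a1 and Cyp17a1 had a peak with a q-value of at most 0.01. The folds of the Uhrf1hepKO peaks are given below.

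**Figure D2:**
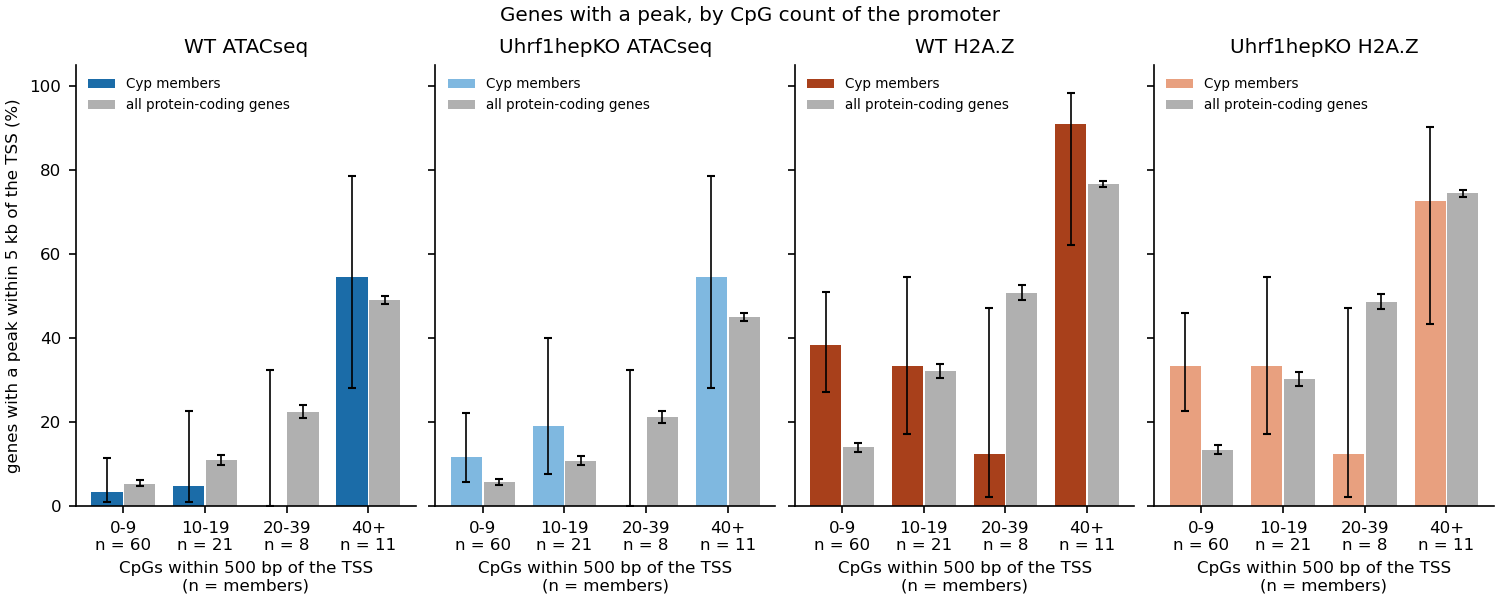
Share of genes (y axis, percent) with a peak in the 5 kb window in each list, by the CpG count of the promoter (x axis, 500 bp to each side). Coloured bars are Cyp members (n under each class), grey bars all protein-coding genes, and error bars are Wilson 95% intervals. In the class of 0 to 9 CpGs, the H2A.Z bars of the members stand at 38.3% and 33.3% against 14.0% and 13.4% of all genes.

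In all, 7 Cyp genes had an accessible site near the TSS in both genotypes, 7% of the members beside 24.0% of all genes. They were Cyp46a1, Cyp2r1, Cyp26b1, Cyp39a1, Cyp51, Cyp20a1 and Cyp4f14. The site at Cyp46a1, a cholesterol hydroxylase best known from neurons, had the highest fold among the members in both lists. Its fold was 6.60 in WT (93.7 percentile) and 7.77 in Uhrf1hepKO (97.9 percentile), centred 253 and 292 bp upstream of the TSS. The Cyp46a1 promoter also had the most CpGs of any member, 99 within 500 bp. The Uhrf1hepKO peak, chr12:108333953-108334225 in GRCm38 and on the gene's strand, is shown as an example of a CpG-rich site, with each of its 22 CpGs in capitals.
Cyp46a1 Uhrf1hepKO ATACseq peak: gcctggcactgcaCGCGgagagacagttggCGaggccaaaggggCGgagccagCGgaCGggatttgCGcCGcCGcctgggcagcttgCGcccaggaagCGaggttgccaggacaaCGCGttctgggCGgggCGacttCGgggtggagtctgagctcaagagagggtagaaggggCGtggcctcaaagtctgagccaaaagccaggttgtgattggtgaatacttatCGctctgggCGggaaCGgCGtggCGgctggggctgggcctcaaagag

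Cyp2r1, the liver enzyme that starts the activation of vitamin D, had an accessible site across its TSS with a fold of 5.35 in WT (79.0 percentile) and 5.21 in Uhrf1hepKO (81.9 percentile). Cyp51, the lanosterol demethylase of cholesterol synthesis, had a site across the TSS with folds of 4.92 (69.4 percentile) and 3.77 (36.9 percentile). Cyp20a1, whose substrate is not known, also had a site across the TSS, at 3.73 (20.6 percentile) and 3.61 (27.8 percentile). These 3 promoters had 65, 68 and 67 CpGs within 500 bp. Cyp39a1, an oxysterol hydroxylase, had a site 238 bp upstream of the TSS in WT and 235 bp upstream in Uhrf1hepKO, with folds of 4.97 and 3.85. This site lay within Slc25a27, and its nearest annotated TSS was that of Slc25a27, so it cannot be given to Cyp39a1 alone. Cyp26b1, which breaks down retinoic acid, differed in that its site lay in an intron, 3368 bp downstream of the TSS in WT and 3432 bp in Uhrf1hepKO, with folds of 5.25 and 4.70. Cyp4f14, a hydroxylase of leukotrienes and fatty acids, had a site without CpGs across its TSS, at 3.75 and 3.64.

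Another 10 members had an ATACseq peak in this window in Uhrf1hepKO and not in WT, 10% (5.52 to 17.4%) beside 5.07% of all genes. They were Cyp7a1, Cyp1a1, Cyp1a2, Cyp2b10, Cyp2f2, Cyp4f13, Cyp4f40, Cyp17a1, Cyp21a1 and Cyp26a1. The windows of Cyp1a1 and Cyp1a2 shared 1 peak, which leaves 9 peaks. Only 2 members, Cyp3a59 and Cyp4v3, had a peak in WT and not in Uhrf1hepKO, 2% (0.550 to 7.0%) beside 7.44% of all genes. Most of these sites were weak. Of the 9 Uhrf1hepKO peaks, 6 had a fold below the median of their list, and 3 had a q-value of at most 0.01. With peaks of q at most 0.01, 3 members had a site in Uhrf1hepKO only, beside 3.88% of all genes, and 1 in WT only, beside 6.74%. With peaks at or above the median fold, 3 members had one in Uhrf1hepKO only, beside 4.62%, and 2 in WT only, beside 5.35%. The Uhrf1hepKO ATACseq library had the higher background of reads per base, and the part of this depth in the count was not tested.

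The 3 sites at or above the median fold lay away from the TSS. At Cyp2b10, the enzyme that phenobarbital induces through the receptor CAR, the peak had a fold of 5.89 (90.3 percentile), the second highest of the members in Uhrf1hepKO, and lay 2266 bp upstream of the TSS. At Cyp21a1, the steroid hydroxylase of the adrenal cortex, the peak had a fold of 4.62 (69.4 percentile) and lay 4249 bp upstream. At Cyp17a1, an enzyme of androgen synthesis, the peak had a fold of 4.60 (68.5 percentile) and lay in an intron 4778 bp downstream of the TSS, 114 bp from an H2A.Z peak that was also found in Uhrf1hepKO only. In WT the nearest ATACseq peak was 89251 bp from the Cyp2b10 site, 28068 bp from the Cyp21a1 site and 92797 bp from the Cyp17a1 site.

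The other 6 sites had folds of 3.33 to 3.60. Cyp7a1, the rate-limiting enzyme of the classic bile acid pathway, had a peak 146 bp upstream of its TSS with a fold of 3.60 (26.9 percentile) and a q-value of 0.0274. The peak at Cyp1a2, an enzyme of caffeine and arylamine metabolism, covered its TSS with a fold of 3.55 (23.3 percentile). It lay 4200 bp upstream of the annotated start of Cyp1a1, the enzyme induced by aryl hydrocarbons. Its nearest annotated TSS was that of Cyp1a2, so it cannot be given to Cyp1a1. Cyp1a1 had an H2A.Z peak in its body in both genotypes, 8467 bp (WT) and 8466 bp (Uhrf1hepKO) downstream of that start. The peaks at Cyp2f2, which acts on naphthalene, and at Cyp4f13 also covered the TSS, with folds of 3.50 and 3.56. The peak at Cyp4f40 lay 241 bp downstream of the TSS, with a fold of 3.33. At Cyp26a1, the retinoic acid hydroxylase, the peak lay downstream of the gene, 4801 bp from the TSS, with a fold of 3.54. Of the 9 Uhrf1hepKO peaks, 8 held 5 or fewer CpGs and that at Cyp26a1 held 11.

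The Uhrf1hepKO sites at Cyp1a2 (chr9:57683657-57683800), Cyp2b10 (chr7:25895290-25895418) and Cyp17a1 (chr19:46668336-46668453) and the WT site at Cyp3a59 (chr5:146079069-146079194) are shown as examples of sites found in 1 genotype. Each is printed in GRCm38 on its gene's strand, with CpGs in capitals. They hold 3, 1, 2 and 0 CpGs, where the Cyp46a1 site above holds 22.
Cyp1a2 Uhrf1hepKO ATACseq peak: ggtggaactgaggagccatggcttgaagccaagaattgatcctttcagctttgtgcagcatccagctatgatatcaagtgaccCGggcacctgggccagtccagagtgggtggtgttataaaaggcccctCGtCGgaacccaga
Cyp2b10 Uhrf1hepKO ATACseq peak: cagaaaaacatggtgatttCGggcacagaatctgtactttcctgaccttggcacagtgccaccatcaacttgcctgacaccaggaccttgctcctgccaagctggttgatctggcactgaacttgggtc
Cyp17a1 Uhrf1hepKO ATACseq peak: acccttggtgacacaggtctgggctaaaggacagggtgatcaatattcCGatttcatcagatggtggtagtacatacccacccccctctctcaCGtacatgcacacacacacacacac
Cyp3a59 WT ATACseq peak: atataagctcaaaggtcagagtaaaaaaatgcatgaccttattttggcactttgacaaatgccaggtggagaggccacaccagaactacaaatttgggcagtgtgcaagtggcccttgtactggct

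The Cyp3a59 site had a fold of 3.80 (24.3 percentile) and lay 126 bp upstream of the TSS. In Uhrf1hepKO the nearest ATACseq peak was 93552 bp from it, and an H2A.Z peak found in Uhrf1hepKO only lay 362 bp upstream of the same TSS. The letters AGGTCA, the core of many nuclear receptor binding sites, matched 2 times in the Cyp3a59 site and 1 time in the Cyp2b10 site on either strand. Such matches were common. In WT, 2 of the 10 ATACseq peaks near members held one, beside 17.7% of all peaks. In Uhrf1hepKO, 1 of 16 did, beside 16.6%. Cyp4v3, a fatty acid hydroxylase, had 2 WT peaks, one across the TSS with a fold of 3.64 and 3707 bp downstream with a fold of 3.63. They lay at the 14.8 and 14.1 percentiles of the list.

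**Figure D3:**
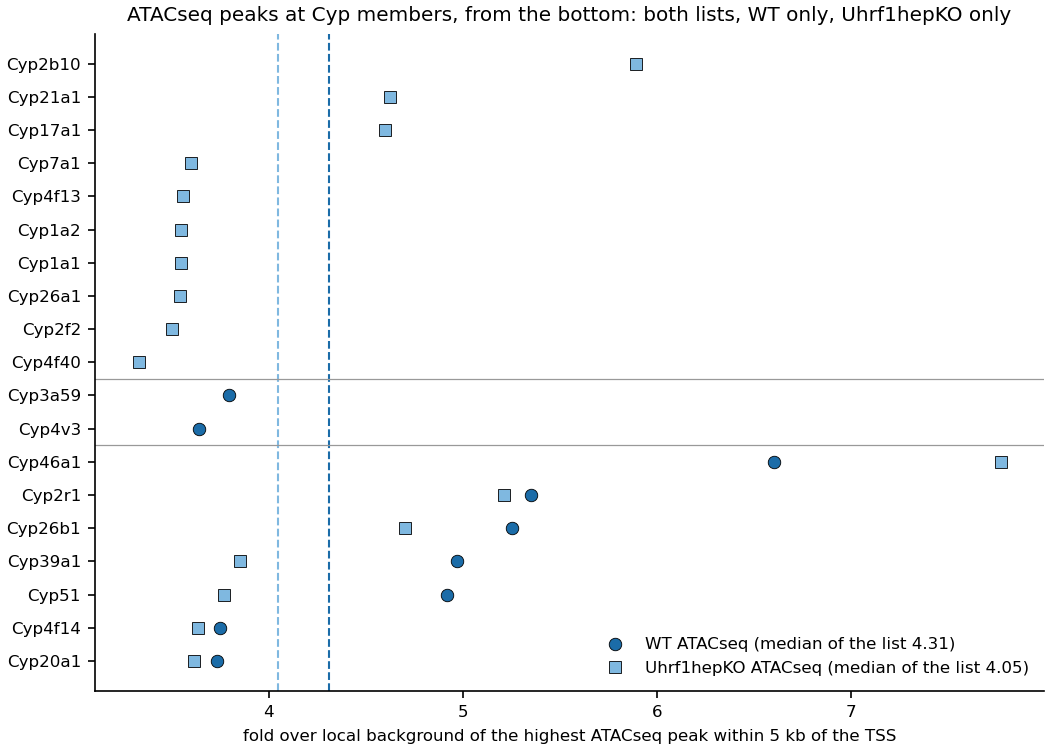
Fold of the highest ATACseq peak within 5 kb of the TSS for the 19 Cyp genes that had one, in WT (circles) and Uhrf1hepKO (squares). Dashed lines are the median folds of the whole lists, 4.31 in WT and 4.05 in Uhrf1hepKO. In the upper group, found in Uhrf1hepKO only, Cyp2b10, Cyp21a1 and Cyp17a1 lie above the median of their list and the other 7 genes below it.

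H2A.Z peaks at Cyp genes had folds like those of the lists as a whole. The 66 WT peaks within 5 kb of a member TSS had a median fold of 5.12 and the 61 Uhrf1hepKO peaks one of 5.35, the median of the whole list in each case, and all peaks within 5 kb of a protein-coding TSS had medians of 5.61 and 5.81. Cyp4f13, a fatty acid hydroxylase, had the highest fold among the members in both lists, 10.5 in WT (96.8 percentile) and 10.2 in Uhrf1hepKO (95.3 percentile), with summits 230 and 225 bp upstream of the TSS. Cyp20a1 followed in WT with a fold of 9.02 and reached 9.76 in Uhrf1hepKO. Cyp2r1 had folds of 8.53 and 9.99 at 571 and 577 bp upstream. Cyp2u1, a fatty acid hydroxylase, had a WT peak of fold 8.04 far from the promoter, 4640 bp upstream, and a Uhrf1hepKO peak of 7.67 at the same distance. Cyp2c65, a gene of the Cyp2c array, completed the top 5 in WT with a peak of fold 7.80 at 2703 bp upstream. In Uhrf1hepKO, Cyp2b9 had a fold of 9.76 and Cyp7b1 and Cyp51 each had 8.83.

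H2A.Z summits lay on both sides of the TSS and rarely on it. Only 2 of the 66 WT peaks and 3 of the 61 Uhrf1hepKO peaks covered the TSS of the member, 3.03% and 4.92%, and over all protein-coding genes the shares were 3.85% and 3.91%. Of the ATACseq peaks, 5 of 10 in WT and 7 of 17 gene and peak pairs in Uhrf1hepKO covered it, beside 57.6% and 54.7% over all genes, and their median distances of 210 and 235 bp stood beside 132 and 135 bp over all genes. The median distance of H2A.Z from the TSS was 564.5 bp in WT and 513 bp in Uhrf1hepKO, beside 485 and 474 bp over all genes. In WT, 38 peaks lay upstream and 28 downstream. These counts are pooled over members. Cyp51 is an example with both sides, with WT summits 242 bp upstream and 126 bp downstream of the TSS and Uhrf1hepKO summits 227 bp upstream and 112 bp downstream. Other members, such as Cyp2a12 and Cyp2c70, had summits upstream only in both lists. Of the 10 WT ATACseq peaks near members, 4 overlapped an H2A.Z peak of the same liver (40%), beside 47.2% of ATACseq peaks near any protein-coding TSS. In Uhrf1hepKO, 3 of 17 gene and peak pairs overlapped one, beside 40.1% of such peaks. None of the 4 WT peaks overlapped by at least 50% of both peaks, and 6 of the 10 had an H2A.Z peak within 500 bp.

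**Figure D4:**
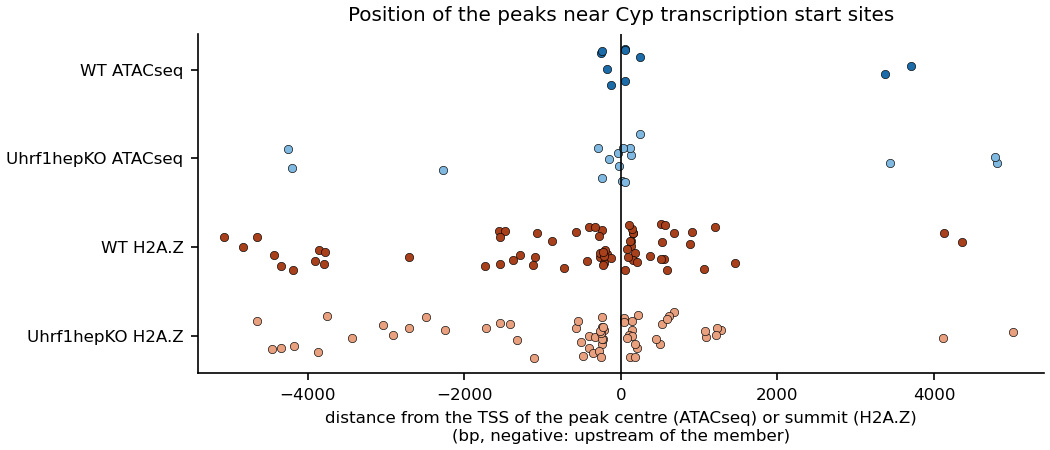
Distance of each peak from the TSS of its Cyp gene in the 4 lists, with the centre of the peak for ATACseq and the summit for H2A.Z. Negative values are upstream, and vertical scatter within a row only separates the points. ATACseq points cluster at the TSS, with median distances of 210 and 235 bp, and H2A.Z points spread over both sides, with medians of 564.5 and 513 bp.

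Most H2A.Z sites near Cyp genes were found in both livers. Of the members, 33 had an H2A.Z peak near the TSS in both genotypes (33%, beside 50.4% of all genes), 8 in WT only (8%, 4.11 to 15%, beside 3.99%) and 3 in Uhrf1hepKO only (3%, 1.03 to 8.45%, beside 2.17%). By position, 46 of the 66 WT peaks overlapped a Uhrf1hepKO peak (69.7%) and 47 of the 61 Uhrf1hepKO peaks overlapped a WT peak. Over all peaks near protein-coding genes the shares were 78.3% and 84.4%. The 8 genes with H2A.Z within 5 kb in WT only were Cyp2w1, Cyp4f14, Cyp2c67, Cyp26a1, Cyp2c37, Cyp2c50, Cyp2j5 and Cyp27a1. Cyp2w1 had the highest fold of these, 6.82 (77.0 percentile), in a peak that lay inside Cox19 with the Cox19 TSS nearest to it. Its summit was 5065 bp from the Cyp2w1 TSS and the peak overlapped a Uhrf1hepKO peak that did not reach into the window, so this gene differed only by the edge of the window. The others had folds of 3.90 to 4.87. The 3 genes with H2A.Z in Uhrf1hepKO only were Cyp3a59 with a fold of 6.27 (66.7 percentile), Cyp17a1 with 4.42 (24 percentile) and Cyp8b1 with 3.20 (1.86 percentile).

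Cyp7b1, the oxysterol hydroxylase of the alternative bile acid pathway, differed in the number of its H2A.Z peaks. Within 5 kb of its TSS it had 3 peaks in WT, with folds of 3.41, 4.87 and 4.14, and 8 in Uhrf1hepKO, with folds from 3.95 to 8.83. The highest WT peak had its summit 408 bp upstream at the 41.5 percentile, and the highest Uhrf1hepKO peak had its summit 412 bp upstream at the 90.1 percentile. Of the 8 Uhrf1hepKO peaks, 5 had no overlap in the WT list. In the gene body Cyp7b1 had 2 peaks in WT and 5 in Uhrf1hepKO, the most of any member in that list. In WT, Cyp4v3 had the most, 3. Cyp4f13 had 2 and 4, and Cyp4f39 had 2 and 3. In number of peaks the opposite was seen at Cyp4v3, with 4 near the TSS in WT and 1 in Uhrf1hepKO. The folds did not follow the number. They were 4.14 to 5.12 in WT, and the Uhrf1hepKO peak, which overlapped a WT peak, had 6.74 (73.0 percentile). The ATACseq peaks of Cyp4v3 were in the WT list only.

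The 100 genes formed 10 clusters when members up to 500 kb apart were joined, with 76 members inside and 24 outside. Clustered members had an accessible site less often than the others. In WT, 2 of 76 clustered members (2.63%, 0.725 to 9.10%) and 7 of 24 others (29.2%, 14.9 to 49.2%) had an ATACseq peak in the 5 kb window. In Uhrf1hepKO these were 8 of 76 (10.5%) and 9 of 24 (37.5%). H2A.Z differed less, at 30 of 76 clustered members (39.5%, 29.2 to 50.7%) and 11 of 24 others (45.8%, 27.9 to 64.9%) in WT.

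The Cyp4f cluster (chr17:32452723-32947402, 8 members), whose enzymes hydroxylate leukotrienes and fatty acids, was the only one of the 7 clusters of 8 or more members with more ATACseq peaks per Mb than the 4.24 (WT) and 4.32 (Uhrf1hepKO) of chromosomes 1 to 19 in both genotypes. It had 8.09 in WT and 14.2 in Uhrf1hepKO. Its H2A.Z density was 54.6 and 52.6 peaks per Mb, beside 20.6 and 18.8 over the chromosomes, and 5 of its 8 members had H2A.Z near the TSS in WT. Cyp4f17 had 4 H2A.Z peaks near its TSS in WT and 3 in Uhrf1hepKO. The span of each cluster also holds genes that are not Cyp genes, and their peaks are counted in its density.

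The Cyp2c cluster (chr19:39007019-40187333, 14 members), which clears drugs and makes epoxides of arachidonic acid, had no ATACseq peak in the window of any member in either genotype. Its span held 2 ATACseq peaks in WT and 1 in Uhrf1hepKO, or 1.69 and 0.847 per Mb. A WT peak (chr19:39264056-39264238) and the Uhrf1hepKO peak (chr19:39264067-39264313) overlapped and lay just outside the upstream edge of the Cyp2c29 window. H2A.Z was near 8 members of the cluster in WT and 5 in Uhrf1hepKO. The 8 were Cyp2c55, Cyp2c65, Cyp2c67, Cyp2c68, Cyp2c37, Cyp2c54, Cyp2c50 and Cyp2c70, and those missing in Uhrf1hepKO were Cyp2c67, Cyp2c37 and Cyp2c50, with WT folds of 4.63, 4.39 and 4.39. The promoters of this array had few CpGs. Cyp2c70, an enzyme of muricholic acid synthesis in mice, had 6 within 500 bp, and its H2A.Z peak was at 224 bp upstream in WT with a fold of 5.85 (63.5 percentile) and at 236 bp upstream in Uhrf1hepKO with a fold of 6.97 (75.6 percentile). The WT peak (chr19:40187508-40187638) and that 4337 bp upstream of Cyp2b9 (chr7:26169016-26169135, fold 6.82, in a gene where 23.8% of the window recurs elsewhere) are shown as H2A.Z sites at CpG-poor Cyp genes, on the strand of the gene with CpGs in capitals.
Cyp2c70 WT H2A.Z peak: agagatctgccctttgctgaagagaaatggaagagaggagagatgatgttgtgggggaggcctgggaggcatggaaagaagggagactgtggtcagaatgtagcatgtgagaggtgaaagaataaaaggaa
Cyp2b9 WT H2A.Z peak: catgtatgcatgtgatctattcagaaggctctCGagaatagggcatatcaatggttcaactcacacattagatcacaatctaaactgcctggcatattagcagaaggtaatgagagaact

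Another 3 arrays also had no ATACseq peak near a member TSS in either genotype, and each had H2A.Z. The span of the Cyp2d array held 2 ATACseq peaks in Uhrf1hepKO, outside the windows of its members. In the Cyp4a, Cyp4b and Cyp4x array of chromosome 4 (10 members), whose Cyp4a enzymes hydroxylate fatty acids, H2A.Z was near 6 members in both genotypes. In the Cyp2d array of chromosome 15 (8 members) it was near 3 in both. In the Cyp2j array of chromosome 4 (8 members) it was near 3 in WT and 2 in Uhrf1hepKO. The Cyp3a array (chr5:145345279-146113287, 8 members), the main drug-clearing subfamily, had the fewest H2A.Z peaks per Mb among the 7 large clusters, 3.91 in WT and 6.51 in Uhrf1hepKO, and in WT 0 of its 8 members had H2A.Z near the TSS (upper limit 32.4%). The array of Cyp2a, Cyp2b, Cyp2f, Cyp2g, Cyp2s and Cyp2t genes on chromosome 7 (13 members) had 14.0 and 13.3 H2A.Z peaks per Mb, and H2A.Z was near 3 of its members in each genotype (Cyp2b9, Cyp2a12 and Cyp2f2).

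**Figure D5:**
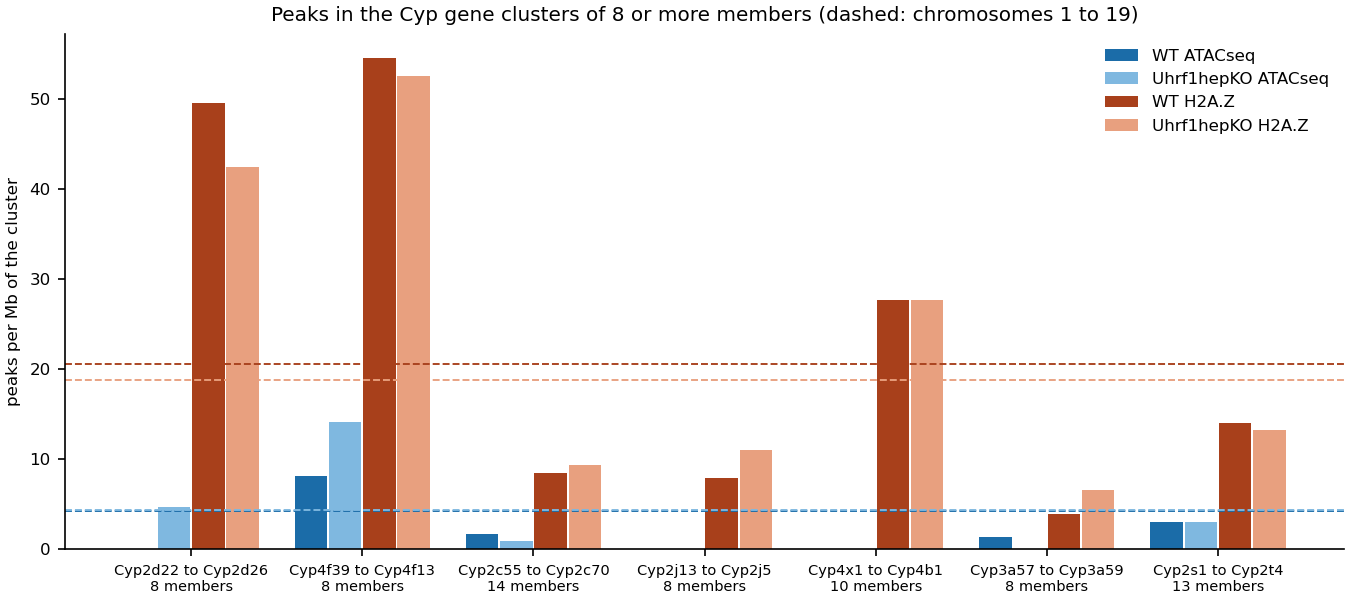
Peaks per Mb in the span of each of the 7 Cyp clusters with 8 or more members, with 1 bar per list. Dashed lines are the densities over chromosomes 1 to 19. The Cyp4f and Cyp2d clusters stand above the dashed H2A.Z lines with 42.5 to 54.6 peaks per Mb, the Cyp4a cluster stands at 27.7, and the Cyp2c, Cyp2j, Cyp3a and Cyp2a clusters stand below them.

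Near-identical copies limit what a peak list can show in these arrays. In 22 members, at least 10% of positions within 5 kb of the TSS started a 75-base sequence that recurs in the genome. The share was 57.3% in Cyp3a41b, 56.5% in Cyp3a41a and 54.2% in Cyp2c29, and it was 30.3% in Cyp4a12a and 31.0% in Cyp4a12b. How reads with several placements were counted is not given in the sources used here, so peaks and missing peaks at these genes are uncertain. Among the other 78 members, 8 had an ATACseq peak in WT and 15 in Uhrf1hepKO, and 33 and 28 had H2A.Z.

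By role, the groups of bile acid, retinoic acid and vitamin D genes were too small for their ATACseq shares in WT to be read against the 31.4% of all genes. Of the 6 bile acid and cholesterol genes, 2 had an ATACseq peak in WT (Cyp46a1 and Cyp39a1, 33.3%, 9.68 to 70.0%) and 3 in Uhrf1hepKO, with Cyp7a1 added, and 4 had H2A.Z in each genotype. The Cyp39a1 site cannot be given to that gene alone. Cyp7a1, Cyp7b1, Cyp8b1 and Cyp27a1, which turn cholesterol into bile acids, had no ATACseq peak near the TSS in WT. Cyp27a1, the mitochondrial sterol hydroxylase, had H2A.Z in WT at a fold of 3.90 and none in Uhrf1hepKO. Cyp8b1, which sets the share of cholic acid, had H2A.Z in Uhrf1hepKO only and no ATACseq peak. Of the 60 genes of the Cyp1, Cyp2 and Cyp3 families placed with foreign compounds, 1 had an ATACseq peak in WT (1.67%, 0.295 to 8.86%) and 4 in Uhrf1hepKO (6.67%, 2.62 to 15.9%), and 20 and 16 had H2A.Z. This placement was by family, so it includes genes described above by other substrates, such as Cyp2u1 and Cyp2c70. Of the 20 Cyp4 genes, 2 and 3 had an ATACseq peak (10% and 15%), beside 31.4% and 29% of all genes. H2A.Z was near 12 and 11 of them (60% and 55%), close to the 54.4% and 52.6% of all genes.

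The genes of hormone metabolism differed among themselves. Of the 6 steroid hormone genes, Cyp17a1 and Cyp21a1 had an ATACseq peak in Uhrf1hepKO and 0 had one in WT. Cyp11b2, the aldosterone synthase, had 2 H2A.Z peaks in WT and 1 in Uhrf1hepKO, with folds of 4.63 to 5.36. Cyp11a1, which starts steroid synthesis, and Cyp11b1 had no peak in any list. Cyp19a1, the aromatase, had an ATACseq peak only in its body in WT, 67962 bp from its TSS. Of the 3 retinoic acid hydroxylases, Cyp26b1 had an ATACseq peak in both genotypes, Cyp26a1 had one in Uhrf1hepKO and an H2A.Z peak of fold 4.39 in WT, and Cyp26c1 had none. Of the 3 vitamin D genes, Cyp2r1 had 4 H2A.Z peaks near its TSS in each genotype, and Cyp24a1 and Cyp27b1, which act mainly in the kidney, had no peak in any list although the Cyp24a1 promoter had 62 CpGs.

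Cyp genes that the study lists as enriched in liver had few called peaks near the TSS. The study took this list from a human proteome resource, so it depends on matching human to mouse genes, and 0 of the 15 Cyp2c genes are on it. The list also holds Cyp2a4, Cyp3a16, Cyp3a41a, Cyp3a41b and Cyp3a44, known to be higher in female liver, and the livers here were male. Recurring sequence limits some genes on the list, such as Cyp3a41b (57.3% of the window) and Cyp2a5 (33.9%). Of its 29 Cyp genes, 1 had an ATACseq peak in WT (Cyp3a59) and 2 in Uhrf1hepKO (Cyp7a1 and Cyp1a2), where 8 and 15 of the other 71 members did. H2A.Z was near 6 of the 29 in WT (20.7%, 9.85 to 38.4%) and 8 in Uhrf1hepKO (27.6%, 14.7 to 45.7%), where it was near 35 (49.3%, 38.0 to 60.7%) and 28 (39.4%, 28.9 to 51.1%) of the others. The 6 were Cyp2a12, Cyp2d10, Cyp2d34, Cyp3a13, Cyp4a31 and Cyp4a32, and each also had H2A.Z in Uhrf1hepKO. Cyp2e1, the ethanol and paracetamol oxidase, and Cyp3a11 and Cyp3a25, drug-clearing enzymes, had no peak in any list. Over all protein-coding genes, 31.4% (WT) and 29% (Uhrf1hepKO) had an ATACseq peak and 54.4% and 52.6% had H2A.Z. The listed members had a median of 6 CpGs within 500 bp and the others 8. The part of CpG number in these counts was not tested. The paper reports that its liver enriched genes as a set were enriched in open chromatin states. Few called peaks near the listed Cyp genes do not show closed chromatin.

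All the livers were male. Of 4 Cyp genes known to be higher in male mouse liver, Cyp7b1, Cyp4a12a and Cyp4a12b had H2A.Z near the TSS in both genotypes and Cyp2d9 did not, and 0 had an ATACseq peak. Cyp4a12a and Cyp4a12b are close copies, with the recurring sequence given above. Of 10 known to be higher in female liver, 1 had H2A.Z in WT (Cyp2b9) and 2 in Uhrf1hepKO, with Cyp17a1 added. Cyp17a1 had the only ATACseq peak of the 10, in Uhrf1hepKO. Over all protein-coding genes, 54.4% (WT) and 52.6% (Uhrf1hepKO) had H2A.Z. Of the 10, Cyp3a41b, Cyp3a41a, Cyp2b13, Cyp2a4, Cyp2b9, Cyp2c40, Cyp2c69 and Cyp3a16 had recurring sequence at 10% or more of window positions. Peaks and missing peaks at these genes are uncertain, so the female and male lists cannot be set against each other.

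The promoters were searched for short motifs. The letters CAAAGTCCA, a form of the HNF4A site, matched on either strand within 150 bp of the TSS in 11 of the 100 members, beside 0.418% of all protein-coding genes. These were 6 Cyp2c genes, 4 Cyp3a genes and Cyp8b1, and near copies such as Cyp3a41a and Cyp3a41b share their match. None of the 11 had an ATACseq peak in the window in either genotype, and 4 had H2A.Z in WT and 4 in Uhrf1hepKO. The match is shown in capitals for 6 of them on the gene's strand in GRCm38, at chr9:121916348-121916388, chr19:40187326-40187366, chr19:39741154-39741194, chr19:39060874-39060914, chr5:145879939-145879979 and chr5:145720207-145720247 in the order of the lines. In each of the 6 the match reads in the direction of the gene.
Cyp8b1 promoter: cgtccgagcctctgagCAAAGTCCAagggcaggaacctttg
Cyp2c70 promoter: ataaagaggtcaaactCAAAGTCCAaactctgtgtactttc
Cyp2c68 promoter: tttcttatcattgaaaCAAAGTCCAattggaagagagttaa
Cyp2c65 promoter: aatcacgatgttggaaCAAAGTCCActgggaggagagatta
Cyp3a11 promoter: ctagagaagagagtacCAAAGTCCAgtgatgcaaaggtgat
Cyp3a41a promoter: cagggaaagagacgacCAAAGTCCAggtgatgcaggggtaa

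The GC box GGGCGG, on either strand, was within 150 bp of the TSS of 19 members, beside 46.3% of all genes, and CCAAT of 52, beside 36.2%. AGGTCA matched at 18 members (all genes 13.8%), the FOXA letters TGTTTAC at 3 (2.40%), the sterol element TCACNCCAC at 3 (1.05%), the core of the xenobiotic response element TNGCGTG at 2 (6.20%), Cyp1a1 and Cyp11a1, and the CRE TGACGTCA at 0 (2.32%). These matches are letters in the genome and do not show that a factor was bound.

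Genes that serve the enzymes were counted in the same way, in groups too small to be read against the shares of all genes. Those shares were 31.4% (WT) and 29% (Uhrf1hepKO) for ATACseq and 54.4% and 52.6% for H2A.Z. Of 6 redox partners, 1 had an ATACseq peak near the TSS in WT (Fdxr) and 4 in Uhrf1hepKO, and 4 and 5 had H2A.Z, while Por, the reductase that passes electrons to microsomal P450 enzymes, had no peak within 5 kb. Of the 8 genes of haem synthesis, 2 and 4 had an ATACseq peak and 8 and 6 had H2A.Z. Alas1, the rate-limiting enzyme of haem synthesis, had an ATACseq peak of fold 3.97 in Uhrf1hepKO only and an H2A.Z peak of fold 4.14 in WT only. Of 14 regulators of Cyp genes, 1 and 3 had an ATACseq peak and 6 and 7 had H2A.Z. The receptor genes Ahr, Nr1i2 and Nr1h4 had H2A.Z in both genotypes, and Nr1i3, Rxra, Nr5a2 and Hnf4a had none within 5 kb.

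Other gene families of drug metabolism are set beside the members. Of 22 Ugt genes, whose enzymes attach glucuronic acid, 1 had an ATACseq peak in each genotype and 10 had H2A.Z in each. Of 21 Sult genes, the sulfotransferases, 0 had an ATACseq peak in either genotype and 9 had H2A.Z in each. Of 23 Gst genes, the glutathione transferases, 8 and 9 had an ATACseq peak and 16 and 15 had H2A.Z, and of 48 Abc transporter genes 14 had an ATACseq peak and 32 had H2A.Z in each genotype. Over all protein-coding genes, 31.4% (WT) and 29% (Uhrf1hepKO) had an ATACseq peak and 54.4% and 52.6% had H2A.Z. The counts of these families were not tested against the members or against all genes, and genes of a family share sequence and position.

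No peak of any list lay within 5 kb of the TSS or in the body of 42 of the 100 members, beside 31.4% of all protein-coding genes. The subfamilies with the most such genes were Cyp3a (7 of 9), Cyp2c (6 of 15), Cyp2d (5 of 8), Cyp2j (4 of 8), Cyp2a (3 of 4), Cyp2b (3 of 5) and Cyp4a (3 of 8), and in Cyp4f it was 1 of 9, Cyp4f18, which stands apart on chromosome 8. A missing peak means that no site passed the caller's threshold at this depth, not that the chromatin was closed.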

How the data were processed

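Liver ATACseq and H2A.Z ChIPseq libraries, 1 per assay and genotype, were analysed from the peak lists that the authors deposited. Reads were mapped by the authors with BWA-MEM (GRCm38.p4), tidied with Picard and passed to MACS2 1 library at a time, in broad mode for ATACseq. The processing notes also name FastQC 0.11.5 and Trimmomatic. The MACS2 version and any control library are not given in the sources used here. Single-end reads are stated for ATACseq, yet the methods give a paired-read option for the peak calls, and neither a Tn5 shift nor duplicate handling is given for ATACseq, so what a unit of pileup stands for in the ATACseq folds and recovered depth is not known. Per peak, the deposited values are a display score made by the authors' caller, the fold (a ratio of pileup to local background), the −log10 p-value and −log10 q-value and, for H2A.Z, the summit. The highest q-values were 0.0997 and 0.0993 in ATACseq and 0.0500 and 0.0489 in H2A.Z. Folds are not scaled between libraries. The depth was recovered from the steps of the folds, which MACS2 makes from pileup plus 1 over background plus 1.

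Gene positions are those of GENCODE vM21, and bases were read from RefSeq's GRCm38.p6. All peaks ended within the chromosome lengths of that build. A gene had a peak where at least 1 bp of a peak overlapped the gene body or the window reaching 5 kb up- and downstream of the gene's annotated start. Windows of neighbouring genes can share a peak. Recurring sequence was counted as 75-mers found more than once on either strand of chromosomes 1 to 19, X and Y. Counts carry Wilson 95% intervals, which cover counting error only, and no test was run. The genes and lists were chosen with earlier results of these data known. The list of liver enriched genes is that of the study, and roles, sex-biased genes, partners and markers are from textbook knowledge. Genes are named where they have the 5 highest folds of a list, a peak in 1 genotype only (all in ATACseq, the 5 of highest fold in H2A.Z, here given with all others), a role in sterol, steroid, retinoic acid or vitamin D metabolism, a place in the liver enriched or sex-biased lists, or the 3 highest counts of H2A.Z peaks in the body. Other members named within a cluster were chosen after their values were seen. Steps were tested on simulated data, where all 200 of 200 genes with a planted peak among 719 genes were found. Plots were drawn with matplotlib 3.10.9 and values computed with scipy 1.17.1, pandas 2.3.3 and numpy 2.4.6 under Python 3.11.15.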

Additional observations from a re-analysis of the deposited data

How the results depend on the processing

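No paired analysis was possible because each genotype has 1 library per assay. Of 82 values under other settings, 50 stayed within the counting interval or 1.5 times the main count, 32 moved and none could reverse, since no test was run. Shares set beside counts here are those of all protein-coding genes. Requiring at least the median fold of the list gave 5 (WT) and 6 (Uhrf1hepKO) members with ATACseq within 5 kb, beside 19.8% and 19%. It gave 26 and 22 with H2A.Z, beside 46.2% and 44.1%. In the body the 4 lists gave 3, 4, 16 and 16, beside 19.3%, 18.7%, 35.6% and 32.7%. In ATACseq, 3 had a peak in both genotypes (beside 14.4%) and 3 in Uhrf1hepKO only (beside 4.62%). In H2A.Z, 18 had one in both (beside 41.5%). Among members with 0 to 9 CpGs, 14 and 10 had H2A.Z, beside 8.88% and 8.13% of all genes of that class. A q-value of at most 0.01 gave 5 and 7 members with ATACseq within 5 kb (beside 25.5% and 22.6%) and 4 and 4 in the body (beside 25% and 22.6%). Of the members, 4 then had a peak in both genotypes (beside 18.7%), 1 in WT only (beside 6.74%) and 3 in Uhrf1hepKO only (beside 3.88%). A window of 1 kb gave 11 with ATACseq in Uhrf1hepKO (beside 25.1%) and 5 in Uhrf1hepKO only, near the 4.01% of all genes. With that window, 14 and 11 members with 0 to 9 CpGs had H2A.Z, beside 5.99% and 5.46% of all genes of that class. A window of 500 bp gave 11 with Uhrf1hepKO ATACseq (beside 23.9%) and 23 with WT H2A.Z (beside 44.6%). Without the first 5 kb of the body, 4, 2, 9 and 9 members had a body peak in the 4 lists, beside 9.01%, 9.42%, 19.5% and 18.4%. With an overlap of at least 50% of both peaks, 0% of WT ATACseq peaks overlapped H2A.Z and 48.5% of H2A.Z positions were shared. The alternatives on members with 0 to 9 CpGs were chosen after seeing the data. The cause of these shifts was not tested. With 1 liver per genotype, genotype, animal and library cannot be told apart, and weak sites at these depths may be missed.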
